A study of Homo sapiens with 15 samples.

Results

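The 8 genes described here are 7 caspases, CASP1, CASP2, CASP4, CASP6, CASP8, CASP9 and CASP10, and HTATIP2. They were taken by name from a table of 23368 genes, all 8 were found in it, and all 8 entered the tests, which covered the 12644 genes averaging 10 or more normalized counts in every clone. HTATIP2, also known as TIP30 or CC3, is a pro-apoptotic tumor suppressor and is not a caspase.

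Caspases are proteases that use a cysteine to cut proteins after aspartate. They are made as inactive precursors that are activated by assembly on a platform or by another caspase, so the amount of their mRNA is not a measure of their activity. CASP8 and CASP10 are initiators downstream of death receptors, CASP9 is the initiator on the apoptosome, CASP2 is an initiator recruited through the adaptor CRADD, CASP6 is an effector that cuts lamins, and CASP1 and CASP4 are inflammatory caspases that cut gasdermin D.

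Poly(A) RNA was sequenced from 3 clones, each founded by 1 sorted cell of a breast cancer line selected for brain metastasis and each transduced with a doxycycline-inducible, FLAG-tagged RBM47, an RNA-binding protein. WT6 and WT10 cells carried wild type RBM47, and MUT3 cells carried the truncating mutant RBM47-I281fs. The labels name MDA231 as the line of all 3 clones, whereas the study's methods derive WT10 and MUT3 from the MDA231 derivative 231-BrM2 and WT6 from CN34-BrM2. For every clone 1 library was made without doxycycline and 1 each at 1, 2.5, 5 and 25 ng/ml of it, so that no condition had a replicate and the 5 doses of a clone carried each test. Every clone kept its own endogenous RBM47 gene, no clone carried an empty vector, and each genotype in a parental line was represented by 1 clone.

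The libraries held 14955172 to 44771871 reads on genes (median 18152381). Normalized counts are reads after division by a DESeq size factor for the library, and the lowest number of reads behind any value of the 8 genes was 53. RBM47 itself rose from 258 to 10425 in WT6 cells, from 168 to 19877 in WT10 cells and from 73.8 to 22084 in MUT3 cells between 0 and 25 ng/ml. In MUT3 cells it was still at 949 at 5 ng/ml, where WT10 cells had 8134. The rise of RBM47 in WT6 cells was not steady. Its counts there were 3137, 8094 and 3966 for the doses of 1, 2.5 and 5 ng/ml, with a fall over the last of these steps. Over this same step HTATIP2, CASP4, CASP1, CASP9, CASP10 and CASP6 had higher counts in WT6 cells, and CASP2 and CASP8 had lower ones. The reason was not tested. The epithelial keratins KRT8 and KRT18 were at 8159 or more in every library, whereas the epithelial markers CDH1 and EPCAM were at 0 to 19.9 and 136 to 456. The mesenchymal filament gene VIM was at 50755 to 104639. KRT7 averaged 51977 in WT6 cells and 127 in WT10 cells. The leukocyte marker CD3E was at 0 in all 15 libraries, and the summed count of 8 markers of leukocytes, endothelium and neural cells was between 94.3 and 1122, most of it MAP2 in WT6 cells. The libraries of WT6 cells at 5 and 25 ng/ml stood apart, since their change from untreated followed transcript length, and the calls in WT6 cells are therefore also given with that trend removed or without these libraries. WT10 cells were not free of a trend with length and GC content. From 0 to 25 ng/ml it was 0.19 on the log2 scale for CASP4, against 0.52 in WT6 cells. For CASP8 it was 0.14 in WT10 and 0.08 in WT6 cells.

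The coding sequence around the catalytic cysteine is what makes the 7 caspases a family, and it is shown to compare their active sites. The stretches were read from the canonical GENCODE transcripts on hg19, 5′ to 3′ on the coding strand. Capitals mark the codons of the active site pentapeptide, glutamine, alanine, cysteine, any residue and glycine, whose middle codon is the catalytic cysteine.
CASP1: atcatcCAGGCCTGCCGTGGTgacagc
CASP4: attgtcCAGGCCTGCAGAGGTgcaaac
CASP2: ttcatcCAGGCCTGCCGTGGAgatgag
CASP6: atcattCAGGCATGTCGGGGAaaccag
CASP8: tttattCAGGCTTGTCAGGGGgataac
CASP10: ttcatcCAGGCCTGCCAAGGTgaagag
CASP9: ttcatcCAGGCCTGTGGTGGGgagcag
The pentapeptide occurred at 1 position in each caspase and at 0 positions in HTATIP2. The residue after the cysteine was arginine in CASP1, CASP4, CASP2 and CASP6, glutamine in the death receptor caspases CASP8 and CASP10, and glycine in CASP9. The stretch lay within 1 exon at chr2:202149802-202149828 in CASP8 and at chr2:202074059-202074085 in CASP10, both on the plus strand. In the other 5 caspases it was split by an intron. CASP8 and CASP10 are neighbors on chromosome 2, with 4014 bases between them, and CASP4 and CASP1 lie on chromosome 11 with 56030 bases between them.

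Compared per kilobase of canonical transcript, CASP4 and HTATIP2 were the most abundant of the 8 genes and CASP10 the least. In untreated WT10 cells the normalized count per kilobase was 760 for CASP4, 460 for HTATIP2, 173 for CASP6, 141 for CASP8, 87.8 for CASP2, 69.3 for CASP9, 50.9 for CASP1 and 20.0 for CASP10. Over the 5 libraries of WT10 cells, the ranges of neighbors in this order overlapped except between HTATIP2 and CASP6, between CASP8 and CASP2 and between CASP1 and CASP10. The clones differed in several of these levels before any doxycycline was added, as described for each gene.

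**Figure D1:**
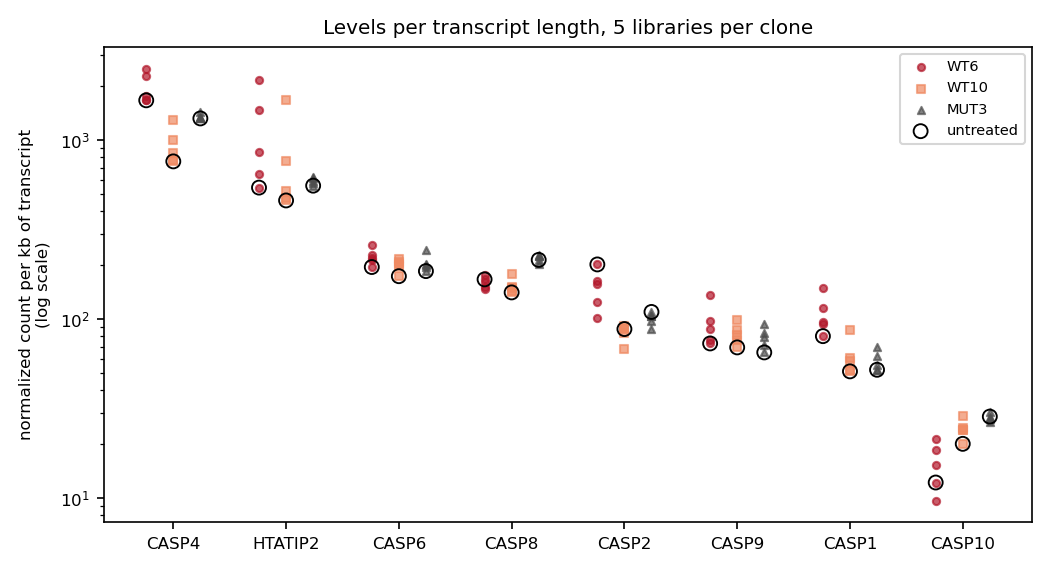
Normalized count per kilobase of canonical transcript (log scale) for the 8 genes in the 5 libraries of each clone, with the untreated library circled. CASP4 and HTATIP2 lie highest and CASP10 lowest in each clone.

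HTATIP2 (ENSG00000109854, chr11:20385231-20405328 on hg19, plus strand) showed the steepest rise of the 8 genes. In WT6 cells its normalized count was 993, 1180, 1567, 2696 and 3992, from the untreated library through 1, 2.5 and 5 to 25 ng/ml. In WT10 cells the corresponding values were 842, 873, 949, 1400 and 3074. In MUT3 cells they were 1018, 1133, 1049, 1076 and 1120. HTATIP2 therefore rose at every dose step in both wild type clones, with the largest step in WT10 cells between 5 and 25 ng/ml, and stayed within 1.11-fold in MUT3 cells. The first step in WT10 cells, to 1.04 times the untreated level, was within counting error (95% interval of counting error 0.94 to 1.14). At 25 ng/ml the level was 4.02 times the untreated level in WT6 cells (95% interval of counting error 3.73 to 4.33) and 3.65 times in WT10 cells (3.37 to 3.96). These ratios compare pairs of libraries and have no replicate check.

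The dose slope, in log2 units per unit of log2(ng/ml + 1), was 0.46 ± 0.05 (SE) for HTATIP2 in WT6 cells and 0.43 ± 0.05 in WT10 cells (limma, adjusted p = 6.42e-06 and 5.55e-05). In MUT3 cells it was 0.02, with a 95% confidence interval from -0.09 to 0.13. The slope in WT10 cells exceeded that in MUT3 cells by 0.41 ± 0.07 (limma, adjusted p = 0.00612). HTATIP2 was the 1 member of the 8 that rose more in WT10 than in MUT3 cells at this threshold, where 2.66% of all genes tested did. The slopes of the wild type clones differed by 0.02, with an interval from -0.12 to 0.17. HTATIP2 is on the list of upregulated genes that the study chose on these same libraries. That choice required a correlation in both wild type clones and no significant one in MUT3 cells. Neither these slopes nor the excess over MUT3 cells is therefore independent evidence of its direction or of a difference between the clones. With the length and GC trends removed the slope of HTATIP2 in WT6 cells was 0.36 (limma, adjusted p = 8.15e-07), and without the WT6 libraries at 5 and 25 ng/ml it was also 0.36 and did not pass (limma, adjusted p = 0.0814). Without the WT10 library at 25 ng/ml the slope in WT10 cells was 0.27 (limma, adjusted p = 0.172) and its excess over MUT3 cells 0.25 (limma, adjusted p = 0.306). Without the MUT3 library at 25 ng/ml the excess of 0.41 had an adjusted p of 0.379 (limma).

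**Figure D2:**
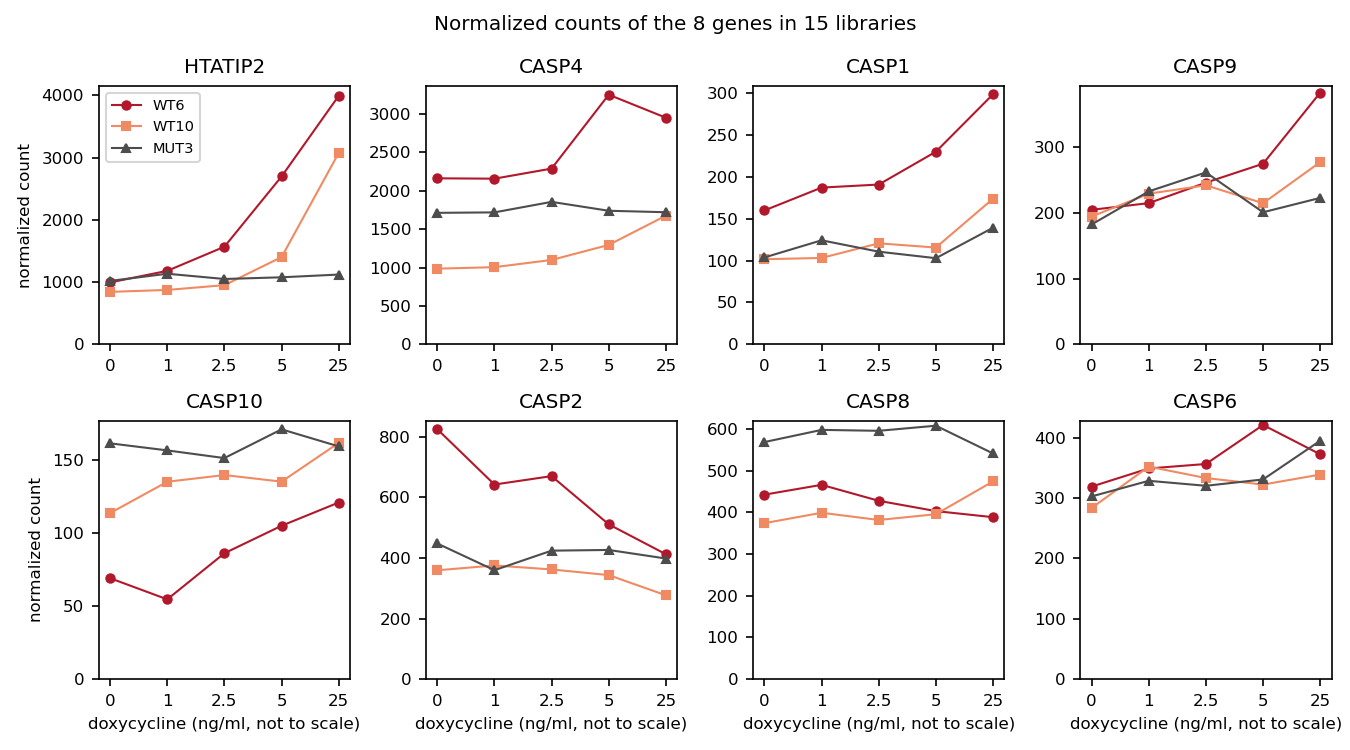
Normalized counts of the 8 genes against the doxycycline concentration (equally spaced, not to scale) in WT6, WT10 and MUT3 cells, 1 library per point. HTATIP2 climbs from 993 to 3992 in WT6 and from 842 to 3074 in WT10 cells and stays between 1018 and 1133 in MUT3 cells.

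CASP4, which binds bacterial lipopolysaccharide inside the cell, was the most abundant caspase of the set. Its gene (ENSG00000196954) spans chr11:104813593-104840093 on the minus strand. In WT10 cells the normalized count was 986 untreated and 1005, 1099, 1295 and 1677 at the rising doses. In MUT3 cells it was between 1713 and 1856 at all doses. In WT6 cells it was 2163, 2159, 2290, 3254 and 2953, so that it was highest at 5 ng/ml and the libraries at 1 and 2.5 ng/ml lay close to the untreated one. The 5 libraries of WT10 cells overlapped neither those of WT6 cells, as for 44.7% of all genes tested, nor those of MUT3 cells, as for 37.1%.

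The dose slope of CASP4 was 0.18 ± 0.04 in WT10 cells (limma, adjusted p = 0.0035) and 0.12 ± 0.03 in WT6 cells (limma, adjusted p = 0.00683). Its excess over MUT3 cells in the WT10 clone was 0.18, with an interval from 0.07 to 0.28 and a limma adjusted p of 0.0503, just over the threshold. This difference passed the threshold with edgeR on the recovered reads (adjusted p = 0.0406) and with DESeq2 (adjusted p = 0.0164). CASP4 has the shortest canonical transcript of the 8, with 1296 bases against a median of 2638 over the annotated genes. The change of WT6 cells from 0 to 25 ng/ml at its length and GC content was 0.52 on the log2 scale in the trend over all genes, and CASP4 itself changed by 0.45. In the fit without the length and GC trends, the slope of CASP4 in WT6 cells was -0.02 (limma, adjusted p = 0.384), and that in WT10 cells was 0.13 (limma, adjusted p = 6.29e-05). With each clone fitted alone, the WT6 slope of CASP4 was 0.12 and did not pass (limma, adjusted p = 0.0886).

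CASP1, which matures interleukin 1 beta and interleukin 18, was far less abundant than CASP4 on the same chromosome. Its gene (ENSG00000137752) spans chr11:104896124-104905977 on the minus strand. In WT6 cells the normalized count was 160, 187, 191, 230 and 299 with rising dose. In WT10 cells it was 102, 103, 121, 116 and 174, and in MUT3 cells 104, 124, 111, 103 and 139. It was thus highest at 25 ng/ml in all 3 clones, the mutant included. The slope was 0.19 ± 0.03 in WT6 cells and 0.17 ± 0.04 in WT10 cells (limma, adjusted p = 0.000375 and 0.00973). In MUT3 cells it was 0.07, with an interval from -0.02 to 0.16, and the difference between WT10 and MUT3 cells was 0.10, with an interval from -0.02 to 0.23 (limma, adjusted p = 0.333). Once the trends of length and GC were taken out, the slope of CASP1 was 0.12 in WT6 cells, which passed (limma, adjusted p = 0.0142), and 0.13 in WT10 cells, which did not (limma, adjusted p = 0.0548). Without the WT10 library at 25 ng/ml the WT10 slope was 0.09 (limma, adjusted p = 0.623). CARD16 is a close copy of the first part of CASP1, so the split of reads between these genes is uncertain.

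CASP9 and CASP10 rose in WT6 cells. CASP9 (ENSG00000132906, chr1:15817327-15853029, minus strand), which is activated by APAF1 and cytochrome c, was at 205, 215, 246, 275 and 384 in WT6 cells. CASP9 was at 195, 230, 242, 215 and 278 in WT10 cells and between 183 and 262 in MUT3 cells. Its level at 25 ng/ml was the highest in each wild type clone, while in MUT3 cells the library at 2.5 ng/ml was the highest. The slope of CASP9 was 0.20 ± 0.04 in WT6 cells (limma, adjusted p = 0.000662). In WT10 cells it was 0.09, with an interval from 0.00 to 0.18, and did not pass the threshold (limma, adjusted p = 0.135). Without the WT6 library at 25 ng/ml the WT6 slope was 0.17 (limma, adjusted p = 0.0951), and with the length and GC trends removed it was 0.18 (limma, adjusted p = 0.000532).

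CASP10 (ENSG00000003400, chr2:202047595-202094151, plus strand), the relative of CASP8 at the death receptor complex, had the lowest counts of the set in WT6 cells. In WT10 and MUT3 cells the mean count was lower for CASP1, at 123 and 116, than for CASP10, at 137 and 160. The CASP10 counts were 69.0, 54.6, 86.1, 105 and 121 in WT6 cells and 114, 135, 140, 135 and 162 in WT10 cells. In MUT3 cells they were between 151 and 171. The 2 highest WT6 libraries were those at 5 and 25 ng/ml, and the one at 25 ng/ml reached the range of WT10 cells. The slope was 0.22 ± 0.05 in WT6 cells (limma, adjusted p = 0.00238) and 0.09 in WT10 cells, with an interval that just includes 0 and reaches 0.19 (limma, adjusted p = 0.15). CASP10 has the longest canonical transcript of the 8, with 5668 bases, and the trend in WT6 cells at its length and GC content was -0.33 on the log2 scale from 0 to 25 ng/ml, opposite to the 0.80 observed. With these trends removed its slope in WT6 cells was 0.29 (limma, adjusted p = 0.0002).

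CASP2 was the member that fell. Its gene (ENSG00000106144) spans chr7:142985308-143004789 on the plus strand. In WT6 cells the normalized count was 825, 642, 670, 511 and 412 in the order of the doses. In WT10 cells it was 359, 375, 362, 343 and 277, and in MUT3 cells between 360 and 448. All WT6 libraries lay above all WT10 libraries, as they did for CASP4, and the gap was smallest at the highest dose. The libraries of these clones did not overlap, in either direction, for 44.7% of all genes tested. At 25 ng/ml the WT6 level was 0.50 times the untreated level (95% interval of counting error 0.438 to 0.569). The slope was -0.21 ± 0.03 in WT6 cells (limma, adjusted p = 0.000149) and -0.09 in WT10 cells, with an interval from -0.16 to -0.01 and an adjusted p of 0.111 (limma). The difference between these slopes was -0.12, with an interval from -0.23 to -0.02 (limma, adjusted p = 0.0944). With the length and GC trends removed the WT6 slope of CASP2 was -0.17 (limma, adjusted p = 9.51e-05).

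CASP8 and CASP6 passed the threshold in no clone in the main fit. CASP8 (ENSG00000064012, chr2:202098166-202226559, plus strand) was at 443, 466, 428, 403 and 389 in WT6 cells, at 374, 399, 382, 396 and 475 in WT10 cells and between 542 and 608 in MUT3 cells. The highest dose thus gave the lowest WT6 value and the highest WT10 value, and the MUT3 libraries did not overlap either clone. Between WT10 and MUT3 cells this held for 37.1% of all genes tested, and the share for WT6 and MUT3 cells was not computed. The slope of CASP8 was -0.05 in WT6 cells (interval -0.11 to 0.01) and 0.07 in WT10 cells (interval 0.01 to 0.13), with adjusted p of 0.128 and 0.0918 (limma). The difference between these slopes was -0.12, with an interval from -0.20 to -0.04 (limma, adjusted p = 0.0519). With the length and GC trends removed the WT6 slope of CASP8 was -0.08 (limma, adjusted p = 0.0328). Without the WT6 libraries at 5 and 25 ng/ml its WT10 slope was 0.07 and passed (limma, adjusted p = 0.0414). In that fit 38.9% of all genes passed in WT10 cells. GENCODE lists a lncRNA on the strand of CASP8 and FLACC1 on the opposite strand over parts of it, and the strand setting of the libraries is not given in the sources used here, so reads of these genes cannot be told apart.

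CASP6 (ENSG00000138794, chr4:110609778-110624739, minus strand) had similar counts in the 3 clones. Its normalized count was between 319 and 421 in WT6 cells, between 283 and 352 in WT10 cells and between 303 and 395 in MUT3 cells. The 3 ranges overlapped, and the untreated library was the lowest in each. The slopes were 0.05 in WT6 cells (interval -0.02 to 0.12), 0.03 in WT10 cells (interval -0.04 to 0.11) and 0.08 in MUT3 cells (interval 0.01 to 0.15), with limma adjusted p of 0.198, 0.536 and 1. MCUB overlaps CASP6 on the opposite strand.

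Counted together, 6 of the 8 genes changed with dose in WT6 cells, with 5 rising and 1 falling, where 57.5% of all genes tested changed (29.2% rising and 28.3% falling). In WT10 cells 3 of 8 changed, all rising, where 20.0% of all genes did and 10.2% rose. In MUT3 cells limma, edgeR and DESeq2 each called 0 of 8, with limma calling 0% of all genes. Even RBM47 itself, with a slope of 2.0 in MUT3 cells, was not called (limma, adjusted p = 0.0517). At an unadjusted p under 0.05, limma had 1 of the 8, CASP6, and 295 of all genes in MUT3 cells. The difference between WT6 and WT10 slopes passed for 0 of 8 by limma, edgeR and DESeq2, where 14.4% of all genes passed by limma, and 2 of the 8, CASP8 and CASP2, had an unadjusted p under 0.05. The median slope of the 8 was 0.16 in WT6, 0.09 in WT10 and 0.01 in MUT3 cells, beside 0.01, -0.00 and 0.00 over all genes tested. Without the WT6 libraries at 5 and 25 ng/ml 0 of the 8 passed in WT6 cells, where 1.44% of all genes did. Without the WT10 library at 25 ng/ml 0 of the 8 passed in WT10 cells, where 0.0475% of all genes did. In bulk RNA, a smaller share of responding cells and a smaller change in each cell cannot be told apart.

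**Figure D3:**
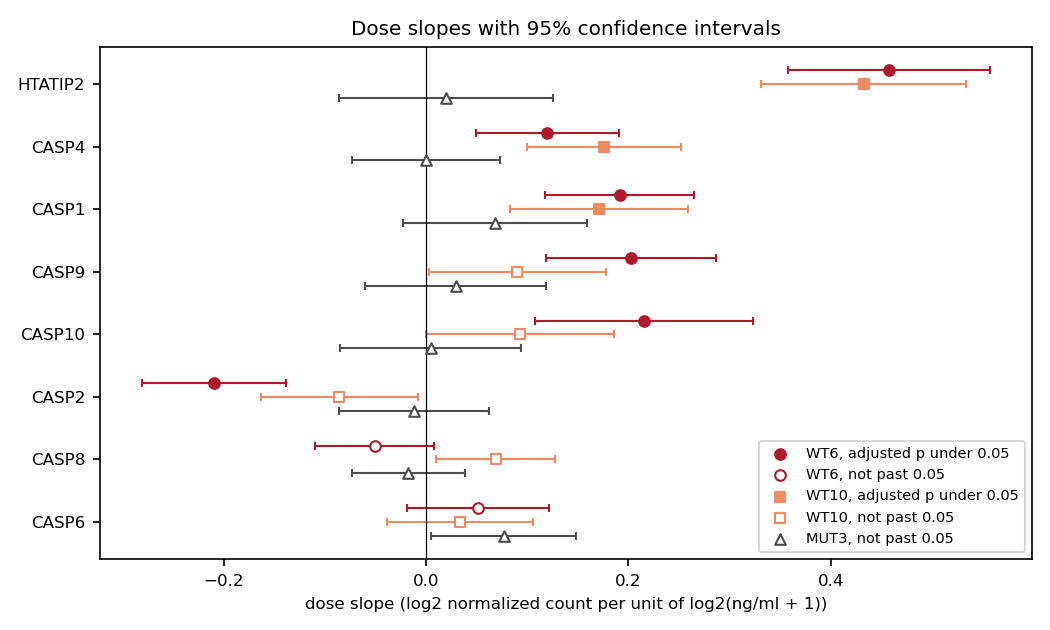
Dose slopes of the 8 genes in each clone with 95% confidence intervals from limma, filled where the adjusted p was under 0.05 and open where it was not. HTATIP2, CASP4 and CASP1 have filled points right of 0 in both wild type clones, CASP2 has a filled point left of 0 in WT6 cells, and all MUT3 points are open.

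**Figure D4:**
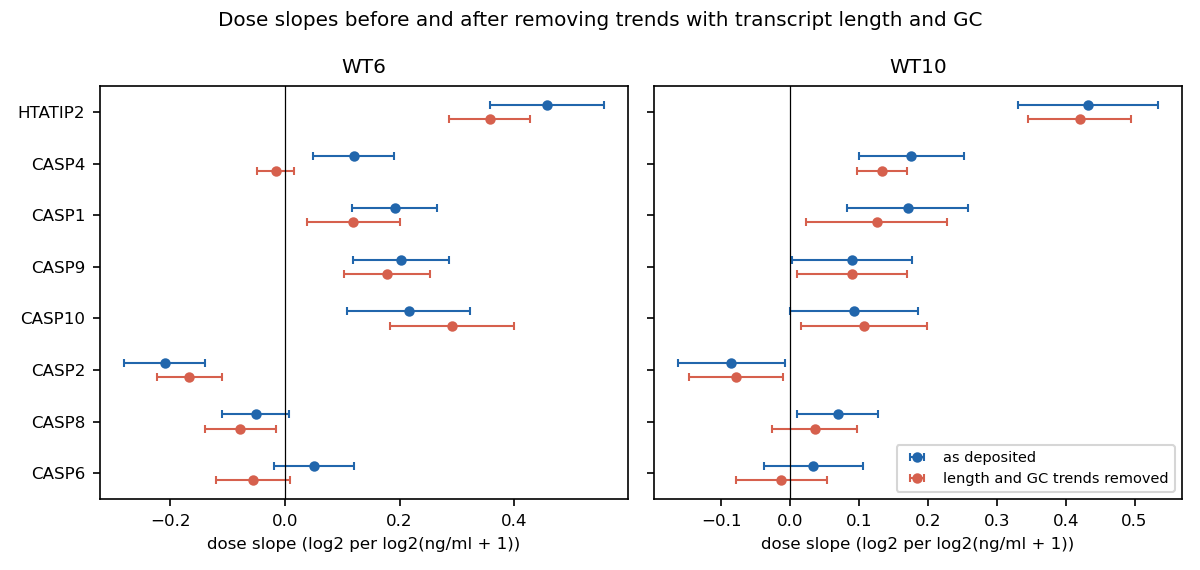
Dose slopes in WT6 and WT10 cells with 95% confidence intervals, from the values as deposited and after each library was corrected for trends with transcript length and GC content. In WT6 cells CASP4 moves from 0.12 to -0.02, while HTATIP2, CASP1, CASP9 and CASP10 stay right of 0 and CASP2 left of it.

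At the lowest dose, 1 ng/ml, the interval of counting error left out no change for 2 of 8 genes in WT6 cells, CASP2 and HTATIP2, and for 1 of 8 in WT10 cells, CASP6. Of all genes tested, 20.6% in the WT6 clone and 23.4% in the WT10 clone had such an interval. CASP2 in WT6 cells was at 0.778 times its untreated level (95% interval of counting error 0.699 to 0.867). HTATIP2 in WT6 cells was at 1.19 times (1.09 to 1.30), CASP6 in WT10 cells at 1.24 times (1.06 to 1.46). In the MUT3 clone 3 of 8 did, beside 14.3% of all genes, with CASP2 at 0.803 times (0.689 to 0.936), CASP9 at 1.28 times (1.03 to 1.59) and HTATIP2 at 1.11 times (1.01 to 1.22). From 0 to 1 ng/ml, 90% of all tested genes had ratios between 0.825 and 1.27 in the WT6 clone, between 0.826 and 1.22 in the WT10 clone and between 0.818 and 1.23 in the mutant. RBM47 at this dose had risen 12.2-fold over its untreated level in WT6 cells and 4.93-fold in WT10 cells, against 1.25-fold in MUT3 cells.

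Without doxycycline the clones already differed. The fitted untreated level differed between WT6 and WT10 cells for 6 of 8 genes, where 59.6% of all genes did, with 5 of 8 higher and 1 of 8 lower in WT6 cells beside 30.8% and 28.8% of all genes. CASP4 was 1.20 ± 0.13 log2 units higher in WT6 cells, CASP2 1.05 ± 0.12 and CASP1 0.74 ± 0.15 (limma, adjusted p = 1.13e-06, 3.05e-06 and 0.000512). CASP10 was -0.94 ± 0.18 relative to WT10 cells (limma, adjusted p = 0.000433). HTATIP2 was higher by 0.50 and CASP8 by 0.31 (limma, adjusted p = 0.0272 and 0.0138), although the deposited untreated HTATIP2 counts were 993 and 842. The call for HTATIP2 was lost without the WT6 library at 0 or 25 ng/ml or the WT10 library at 1, 2.5 or 25 ng/ml, with values between 0.31 and 0.46. The same 6 genes were called with the length and GC trends removed, where 70.1% of all genes were. They were also called without the WT6 libraries at 5 and 25 ng/ml, where 65% of all genes were. The trends were taken out around each clone's own mean, so their removal could not take away a difference between clone means. Clone and parental line cannot be told apart here.

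Between WT10 and MUT3 cells, which share a line, 3 of 8 genes differed in the fitted untreated level, all lower in WT10 cells, where 28.2% of all genes differed and 13.9% were lower. CASP4 was at -0.91 ± 0.13 log2 units, CASP8 at -0.70 ± 0.10 and HTATIP2 at -0.63 ± 0.18 (limma, adjusted p = 0.000114, 0.000106 and 0.0185). The deposited untreated HTATIP2 counts were 842 in WT10 and 1018 in MUT3 cells, a ratio of 0.827. For CASP4 and CASP8 the 5 libraries of each clone did not overlap, which held for 37.1% of all genes tested. CASP4 of WT10 cells at 25 ng/ml, 1677, thus was below every MUT3 library. The call for HTATIP2 was lost without the WT10 library at 1 or 25 ng/ml or the MUT3 library at 0 or 1 ng/ml, with values between -0.67 and -0.44.

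The apoptosome genes APAF1 and CYCS were listed with DIABLO, HTRA2, ENDOG and AIFM1, which encode mitochondrial proteins. Of these 6 genes 4 rose in WT6 cells, DIABLO, HTRA2, ENDOG and AIFM1, and 1 fell. In WT10 cells limma called 0 of 6, and 0 of 6 had an unadjusted p under 0.05. Of all genes tested, 29.2% rose and 28.3% fell in WT6 cells, and 10.2% rose and 9.83% fell in WT10 cells. ENDOG, a mitochondrial nuclease, went from 845 to 2067 in WT6 cells (slope 0.32), and HTRA2, a mitochondrial protease, from 1980 to 3185 (slope 0.14). APAF1, the scaffold of the apoptosome, fell by 0.10 per unit of dose in WT6 cells (limma, adjusted p = 0.023). CYCS, cytochrome c, did not pass in either clone. The median slope of the 6 was 0.09 in WT6 cells and 0.04 in WT10 cells. Without the length and GC trends 2 of 6, ENDOG and CYCS, rose in WT6 cells and 0 fell. In that fit 58.6% of all genes changed in WT6 cells, 3277 of 12116 rising and 3817 falling. In WT10 cells 36% changed, 1873 rising and 2489 falling.

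The death domain adaptors and platforms, which recruit CASP8, CASP10 and CASP2, had 5 of 9 genes rising and 3 falling in WT6 cells, and 3 rising and 1 falling in WT10 cells, beside the same 29.2% and 28.3% of all genes in WT6 and 10.2% and 9.83% in WT10 cells. CRADD, the adaptor of CASP2, rose from 109 to 552 in WT6 cells and from 1044 to 1476 in WT10 cells (slopes 0.55 and 0.12, limma, adjusted p = 2.79e-06 and 0.0319). CFLAR, the decoy of CASP8, rose from 565 to 948 and from 677 to 1023 (slopes 0.15 and 0.13). DEDD2 rose in both wild type clones. FAF1 fell in both, but with the length and GC trends removed only the WT10 call was made. TRADD rose in WT6 cells, from 219 to 625. CASP8AP2, a CASP8-binding protein, and RIPK1 fell in WT6 cells, RIPK1 without a call once these trends were taken out. FADD, the adaptor of CASP8 and CASP10, did not pass in either clone from the values as deposited and fell in both with the trends removed. The median slope of the 9 was 0.13 in WT6 and 0.05 in WT10 cells, and without the length and GC trends 5 rose in WT6 cells, CRADD, CFLAR, TRADD and DEDD2 among them, and 2, CASP8AP2 and FADD, fell. In that fit 58.6% of all genes changed in WT6 cells and 36% in WT10 cells.

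The inflammasome genes, which act with CASP1 and CASP4, had 5 of 9 tested genes rising in WT6 cells and 3 of 9 in WT10 cells, and 0 falling, where 29.2% and 10.2% of all genes rose. IL18, a substrate of CASP1, rose from 2369 to 4385 in WT6 cells and from 256 to 484 in WT10 cells (slopes 0.22 and 0.22, limma, adjusted p = 0.000771 and 0.0153). AIM2, a DNA sensor, rose at low counts, from 14.2 to 37.4 and from 9.74 to 57.0. PYCARD, the adaptor of CASP1, GSDMD, the pore former, and CARD16 rose in WT6 cells. NLRC4 rose in WT10 cells from 13.0 to 31.1. The median slope of the 9 was 0.15 in WT6 cells and 0.10 in WT10 cells, and without the length and GC trends 5 of 9 rose in WT6 cells, with NLRP1 in place of GSDMD. In that fit 58.6% of all genes changed in WT6 cells.

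The inhibitors of apoptosis had 0 of 5 tested genes rising and 3 falling in WT6 cells, and 2 rising and 1 falling in WT10 cells, where 28.3% of all genes fell in WT6 and 10.2% rose and 9.83% fell in WT10 cells. XIAP, which blocks CASP9, rose from 1193 to 2120 in WT10 cells (slope 0.18, limma, adjusted p = 0.00142), in excess of MUT3 by 0.22 (limma, adjusted p = 0.013). BIRC2 fell from 5303 to 2407 in WT6 cells, and BIRC5, survivin, fell in both wild type clones. BIRC3 rose in WT10 cells and BIRC6 fell in WT6 cells. The median slope was -0.14 in WT6 and 0.03 in WT10 cells, and without the length and GC trends XIAP and BIRC3 rose and BIRC2 and BIRC5 fell in both wild type clones. In that fit 58.6% of all genes changed in WT6 cells and 36% in WT10 cells. Of the caspase substrates that act in cell death, 2 of 8 rose and 4 fell in WT6 cells, and 1 rose and 2 fell in WT10 cells, so that 6 and 3 of 8 changed where 57.5% and 20.0% of all genes did. PARP1 fell from 10487 to 3768 and from 7501 to 4235 (slopes -0.33 and -0.18), BID rose in both clones, and LMNA, the lamin that CASP6 cuts, fell in WT10 cells (slope -0.12, limma, adjusted p = 0.00524). The median slope of the substrates was -0.07 in WT6 and -0.03 in WT10 cells, and without the length and GC trends 1 rose and 4 fell in WT6 cells, PARP1 and LMNA among those that fell. In MUT3 cells limma called 0 of the 37 tested genes of the lists, and 2, BIRC3 and NLRC4, had an unadjusted p under 0.05. Without the WT6 libraries at 5 and 25 ng/ml limma called 0 of these 37 genes in WT6 cells, and 9 had an unadjusted p under 0.05.

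The genes whose pattern was most like that of each member were found by Pearson's r over the 15 libraries after each clone's mean was subtracted. The points share the doses and the libraries, so r is a description. HTATIP2 was most like RTCD1 (r = 0.988), the chemokine gene CXCL1 (r = 0.986) and the interferon gamma receptor gene IFNGR2 (r = 0.985). CASP4 was most like SRGN, SAR1B and TXNDC9 (r = 0.977, 0.975 and 0.970), and CASP1 was most like CDC42EP2, APOL1 and ZNF274 (r = 0.955 and 0.952 for the first pair). The best match of CASP2 was RNF219 (r = 0.973), that of CASP9 was KCTD21 (r = 0.967) and that of CASP10 was UBE2R2 (r = 0.946). CASP8 and CASP6 had weaker best matches, EPB41L3 (r = 0.855) and CIRBP-AS1 (r = 0.812). Among the members, HTATIP2 and CASP4 had r = 0.930, HTATIP2 and CASP1 r = 0.908, CASP1 and CASP4 r = 0.791, and CASP2 ran opposite to HTATIP2 (r = -0.894). The neighbors CASP8 and CASP10 had r = -0.285.

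The promoters of CASP4 and HTATIP2, genes that rose in WT10 cells, are shown where known motifs lay closest together. RefSeq (GRCh38.p14) had a promoter entry for 6 of the 8 genes, and the 250 bases before each start were searched on both strands for the CCAAT box (CCAAT), the GC box (GGGCGG), the TATA box (TATAAA) and the gamma-activated site (TTCNNNGAA). Capitals mark the motifs, which do not overlap in these windows.
CASP4: cagtaATTGGatgCCAATttgctgatga
HTATIP2: caggtcCCGCCCctgtGGGCGGggcgaggc
The CASP4 window is chr11:104968686-104968713 on the minus strand and holds a CCAAT box on each strand, at -134 and -126 from the start. The HTATIP2 window is chr11:20363684-20363713 on the plus strand and holds a GC box on each strand, at -24 and -14. A CCAAT box was found in 32% and a GC box in 42.6% of 35116 promoters of this length. The gamma-activated site, found in 6.57% of promoters, was in neither of these promoters and in 1 of the CASP8 promoters, at -200, and the TATA box, found in 10.7%, was in another CASP8 promoter at -139. These matches are letters in a window and not sites shown to be bound.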

How the data were processed

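RNA-seq of 15 libraries (3 clones at 5 doxycycline concentrations) was analysed. The authors selected poly(A) RNA, sequenced 75 base pairs from each end, mapped reads to hg19 with STAR, counted them with HTSeq 0.5.4 at default settings and normalized with DESeq. The deposited values are a normalized signal, reads on a gene divided by the library's size factor. The annotation used and the strand of the libraries are not given in the sources used here. Scaling every column by its lowest nonzero value gave whole reads for 100% of the values (tolerance 1e-06). A floor of 3 reads corresponded to 1.19 to 4.09 normalized counts. HTSeq's 5 tallies, among them reads on no feature (56.5% to 59.6%), were left out.

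Log2(normalized count + 1) was fitted with limma 3.58.1 and vooma weights for the 12644 genes with a mean of at least 10 in each clone, 1 line per clone against log2(dose + 1), 9 residual degrees of freedom and Benjamini-Hochberg adjustment over all genes (threshold 0.05). Slopes understate changes of low counts. Since no condition has a replicate, p-values measure the scatter of libraries around these lines. Ratios of libraries carry exact conditional binomial intervals (95%), which cover counting error only. edgeR 4.0.16 and DESeq2 1.42.0 on recovered reads were alternatives. The fits were tested on simulated data. GENCODE 44 on hg19 annotated 92.0% of the genes and 95.8% of those tested. Every member was reported, with the 3 genes most like it by Pearson's r and the genes of 5 pathway lists. A further list and 1 cell type marker are not reported here. The members and lists were chosen with earlier results of these data known. Analyses ran in Python 3.11.15 and R 4.3.3.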

Additional observations from a re-analysis of the deposited data

Results flagged for a closer look

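The dose slope of HTATIP2 differed between the wild type and the mutant clone of one line, by 0.41 log2 units per unit of log2(ng/ml + 1) (limma interaction term, adjusted p = 0.00612). The study's choice of HTATIP2 on these same libraries required no significant correlation in MUT3 cells, so this difference is not independent evidence. Without the WT10 library at 25 ng/ml the difference was 0.25 (limma, adjusted p = 0.306), and without that of MUT3 cells it was 0.41 (limma, adjusted p = 0.379). HTATIP2 was higher at 25 ng/ml than untreated in 2 of 2 wild type clones. No group had more than 1 library, so no library could be tested as an outlier within its group.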

How the results depend on the processing

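No paired analysis was possible because each condition has 1 library. Replacing the dose by the log2 RBM47 count, or by any doxycycline against none, left 0 of the 8 genes called in each slope. Few of all genes tested were called either. With the RBM47 count limma called 0.0158% in WT6 cells, 0.704% in WT10 cells and 0 for WT10 minus MUT3. With any doxycycline against none limma called 0 in WT6 and 0 in WT10 cells. Leaving out the WT6 libraries at 5 and 25 ng/ml, chosen after seeing the data, gave 0 calls in WT6 cells and 2 for WT10 minus MUT3. In WT10 cells it gave 4, CASP8 being the gene added, where 38.9% of all genes passed. For WT10 minus MUT3 the count was also 2 with length and GC trends removed, with edgeR and with DESeq2, CASP4 being the gene added, and for WT6 minus WT10 it was 1 with these trends removed (CASP4, -0.15, limma adjusted p = 0.00176). Of all genes tested, 5.62% passed for WT10 minus MUT3 in the main fit. The share was 18.6% with the trends removed, 4.82% with edgeR, 8.43% with DESeq2 and 24.2% without WT6 at 5 and 25 ng/ml. For WT6 minus WT10 the share was 14.4% in the main fit and 15.2% with the trends removed. Leaving out 1 library at a time gave 5 to 6 calls in WT6 cells, 0 to 3 in WT10 cells, 0 to 2 for WT10 minus MUT3, 0 to 1 for WT6 minus WT10, 5 to 6 for the level of WT6 minus WT10 and 2 to 4 for that of WT10 minus MUT3. The share of all genes tested moved as well. In WT6 cells it ran from 36.6% to 62.4% and in WT10 cells from 0.0475% to 32.8%. For WT10 minus MUT3 it ran from 0 to 17.9% and for WT6 minus WT10 from 0.467% to 29.4%. For the levels it ran from 49.8% to 67.1% and from 16.6% to 40.8%. With length and GC trends removed the signs turned for CASP4 (-0.016) and CASP6 (-0.056) in WT6 cells, CASP6 in WT10 cells (-0.013) and HTATIP2 in WT6 minus WT10 (-0.063), which was also -0.077 without WT6 at 5 and 25 ng/ml. Without 1 library, CASP6 in WT10 cells ranged from -0.0094 to 0.060, HTATIP2 in WT6 minus WT10 from -0.062 to 0.19 and CASP4 in WT6 minus WT10 from -0.083 to 0.035. The HTATIP2 level of WT6 minus WT10 lost its call without precision weights (0.47) and with the order of the dose (0.41), and that of WT10 minus MUT3 with the latter (-0.68). The pseudocount, the low-value filter and the fit of each clone alone kept every count within 1.5 times, and TMM scaling kept 48 of 48 ratios within their counting intervals. With each clone fitted alone CASP4 lost its call in WT6 cells (0.12, limma adjusted p = 0.0886). Causes of these changes were not tested. Depth limits CASP10 and CASP1 most.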
